A study of Mus musculus with 4 samples.

Results

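Toll-like receptors are membrane proteins that bind microbial molecules. In this set of 10 genes they were joined with Cd14, the co-receptor that hands lipopolysaccharide to Tlr4, and Myd88, the adaptor that most of them signal through. Every non-control spot whose gene name in the scanner files was Tlr1, Tlr2, Tlr3, Tlr4, Tlr6, Tlr7, Tlr8, Tlr9, Cd14 or Myd88, or an older alias of one of these, was used. That gave 12 probes in 39 spots per array, out of 41174 probes. RNA came from cultured spermatogonial stem cells, the germ cells that renew themselves and feed sperm production, of mice of the strain C57/BL6 x DBA/2 F1 at day 5. In the -F+S group FGF2 was left out of the medium and the FGF receptor inhibitor SU5402 was added, for 12 h. In the normal culture group the cells stayed in a medium free of serum that held GDNF at 40 ng/ml and FGF2 at 5 ng/ml, growth factors that sustain these cells. Each of 4 two-colour arrays held 1 of 4 -F+S cultures in Cy3 and 1 of 4 normal cultures in Cy5. The labels state neither whether GDNF stayed in the -F+S medium nor whether feeder cells were present. Dyes were never swapped, so a dye effect of a probe cannot be told apart from the treatment. The 4 arrays shared a slide and a scan, and between 25502 and 28459 probes per channel were well above background.

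Tlr1, Tlr2, Tlr4 and Tlr6 sit at the cell surface. Tlr2 pairs with Tlr1 or Tlr6 to bind bacterial lipopeptides, and Tlr4 binds lipopolysaccharide together with its partner protein Ly96. Tlr3, Tlr7, Tlr8 and Tlr9 sit in endosomes and bind nucleic acids. All signal through a cytoplasmic domain shared with the interleukin 1 receptors, the TIR domain, to which adaptors dock. Myd88 serves all of the receptors named here except Tlr3, whose adaptor is Ticam1, and Tlr4 uses both. Downstream kinases then release the transcription factors NF-kB and the interferon regulatory factors. The receptors are best known from macrophages and dendritic cells, and several are also made by fibroblasts and by Sertoli cells, which nurse germ cells in the testis.

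All probes were 60 bases long. As the receptors are a family of related sequences, the probes were set against each other: over all 66 pairs of the 12 probes the longest run of bases in common was between 4 and 8 bases. The probes of Tlr2 and Tlr1, which belong to receptors that pair with each other, are shown with the 7 bases they share in capitals, because one of them was measured on all arrays and the other on none. The Tlr2 probe lies at chr3:83640344-83640403 and the Tlr1 probe at chr5:65316115-65316174 (mm9, both on the minus strand, both in the transcript of the named gene according to the files).
Tlr2 probe: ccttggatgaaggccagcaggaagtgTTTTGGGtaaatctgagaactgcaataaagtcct
Tlr1 probe: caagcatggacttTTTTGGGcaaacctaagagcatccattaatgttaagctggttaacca
The run is short against the probe length, and the Tlr1 and Tlr6 probes had at most 5 bases in a row in common.

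The receptors did not move as a family. Of the 10 genes, 7 had a probe bright enough to be tested, which means well above background in 1 channel on 3 or 4 arrays. Tlr3, Tlr4 and Tlr6 were higher in -F+S cells, Cd14, Tlr2 and Tlr9 were lower, and Myd88 was not called, at an adjusted p under 0.05 in limma's moderated test over all genes. Calls were common on these arrays: 37.5% of the 18449 genes tested were called higher and 30.9% lower, so 3 calls in each direction among 7 genes is near what all genes gave. By probe, 8 of 12 were tested, with 4 higher, 3 lower and 1 not called, against 37.3% higher and 29.1% lower over 27722 probes. Of the 7 tested genes, 6 had channel levels that did not overlap between -F+S and normal culture, against 61.2% of all genes tested. Values are log2 ratios of -F+S over normal culture within an array, so that 1 is a doubling, and levels are log2 values of each channel after scaling between arrays. In RNA from whole cultures, fewer cells of a type and less RNA per cell cannot be told apart.

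**Figure D1:**
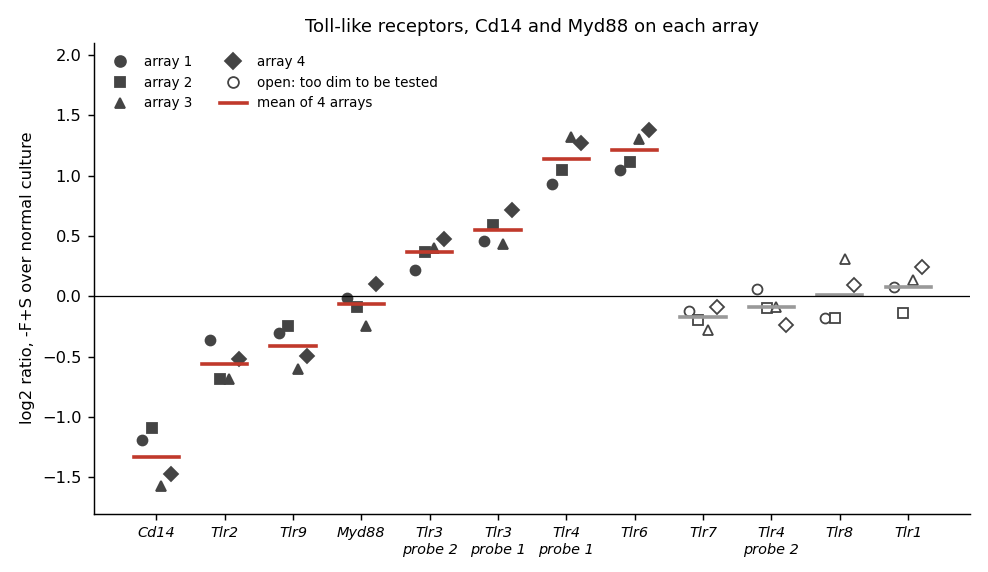
The log2 ratio of -F+S over normal culture is plotted for each of the 12 probes on each of 4 arrays, with 1 symbol per array and a bar at the mean. Filled symbols are probes that were tested, and open symbols are probes too dim to be tested; Cd14 lies lowest, at a mean of -1.33, and Tlr6 highest, at 1.21.

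The lipopolysaccharide receptor moved in opposite directions in its parts: Cd14 fell, while Tlr4 and Ly96 rose. Cd14 is a membrane-anchored protein without a signalling domain that carries lipopolysaccharide to Tlr4. Its probe, in 1 spot per array, gave log2 levels of 9.80, 10.03, 9.88 and 9.88 in -F+S cells, against 10.99, 11.12, 11.45 and 11.34 in normal culture (arrays 1 to 4). The -F+S levels all lay below those of normal culture, and they differed less among themselves, with an SD of 0.096 in -F+S cells and 0.21 in normal culture. The log2 ratios were -1.19, -1.09, -1.57 and -1.47, with a mean of -1.33 ± 0.23 (SD, n = 4 arrays), which is 2.52-fold lower in -F+S cells (SE 0.092, limma adjusted p = 1.61e-06). Among all genes called lower, 92 fell at least as far as Cd14.

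Tlr4 is the signalling receptor for lipopolysaccharide. Its brighter probe, printed in 10 spots per array of which 8 to 10 were usable, gave log2 levels of 9.13, 9.04, 9.001 and 9.11 in -F+S cells, against 8.20, 7.997, 7.68 and 7.84 in normal culture. Every -F+S level exceeded every level of normal culture. The mean log2 ratio was 1.14 ± 0.18 (SD, n = 4 arrays), which is 2.20-fold higher in -F+S cells (SE 0.084, adjusted p = 2.42e-06). The array ratios were 0.93, 1.04, 1.32 and 1.27, and repeat spots within an array, which share its RNA and hybridisation, had an SD between 0.033 and 0.098. A second Tlr4 probe, designed on another transcript (AK014533, chr4:66590556-66590615 in mm9), was not well above background in either channel of any array and gives no second measurement. The tested probe was designed on NM_021297 and lies at chr4:66503724-66503782.

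Ly96, the secreted partner that Tlr4 needs to bind lipopolysaccharide, is not a member of the set and was taken from the list of co-receptors. Its log2 levels were 10.83, 10.85, 10.75 and 10.82 in -F+S cells, against 9.61, 9.62, 9.54 and 9.95 in normal culture. It was higher in -F+S cells on all 4 arrays, at a mean log2 ratio of 1.13 (SE 0.082, adjusted p = 2.22e-06). On the same arrays the log2 ratio of Tlr4 exceeded that of Cd14 by 2.12, 2.14, 2.90 and 2.73. The ratio of Tlr4 minus that of Ly96 was -0.29, -0.19, 0.11 and 0.40, with a mean of 0.0086 ± 0.31 (SD, n = 4), so the pair could not be placed in an order. Pairs of partner genes were set side by side after their values were seen. Over the 6 pairs compared, an exact two-sided sign-flip test gave p = 1 for Tlr4 against Ly96 and p = 0.125 for each of the others, which is the smallest p that 4 arrays allow, so no pair could pass a threshold of 0.05 (0.15 after Benjamini-Hochberg adjustment).

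Tlr2 and Tlr6, which together bind diacylated lipopeptides, also moved in opposite directions. Tlr2 gave log2 levels of 9.35, 9.26, 9.15 and 9.32 in -F+S cells, against 9.71, 9.95, 9.84 and 9.84 in normal culture, over 9 or 10 usable spots per array. All -F+S levels were below all normal culture levels. The log2 ratios were -0.36, -0.69, -0.69 and -0.52, a mean of -0.56 ± 0.16 (SD, n = 4 arrays), or 1.48-fold lower (SE 0.079, adjusted p = 0.000184). The array with the smallest fall, array 1, was also the one with the widest scatter among its spots, at an SD of 0.058, against 0.033 to 0.045 on the others.

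Tlr6 had the highest ratio of the set. Its single spot gave log2 levels of 8.75, 8.73, 8.69 and 8.90 in -F+S cells, against 7.70, 7.62, 7.38 and 7.52 in normal culture. The groups did not overlap, and every array showed a difference of more than 1 log2 unit. The mean log2 ratio was 1.21 ± 0.16 (SD, n = 4 arrays), which is 2.31-fold higher in -F+S cells (SE 0.079, adjusted p = 1.06e-06), with array values of 1.05, 1.11, 1.31 and 1.38. A ratio at least as high as that of Tlr6 was found for 1616 of the genes called higher, so this size of rise was common on these arrays. The Tlr6 ratio exceeded the Tlr2 ratio by 1.41, 1.79, 1.99 and 1.89.

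Tlr1, the other partner of Tlr2, had a probe that was not well above background in either channel on any array. Its log2 levels of 6.98, 6.98, 7.09 and 7.10 in -F+S cells and 6.90, 7.12, 6.95 and 6.86 in normal culture overlapped, and no fold is given for them. A transcript below the detection limit of this probe would not have been seen.

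Among the nucleic acid receptors of endosomes, Tlr3 rose, Tlr9 fell, and Tlr7 and Tlr8 were too dim to be tested. Tlr3 binds double-stranded RNA and is the receptor that does not use Myd88. Its brighter probe (chr8:46482009-46482068, mm9) gave log2 levels of 8.71, 8.79, 8.50 and 8.83 in -F+S cells, against 8.25, 8.20, 8.07 and 8.11 in normal culture. The ratios of 0.46, 0.59, 0.43 and 0.72 averaged 0.55 ± 0.13 (SD, n = 4 arrays), or 1.46-fold higher (SE 0.075, adjusted p = 0.000147). Tlr3 was the only member with a second tested probe, in the same transcript (chr8:46481729-46481788). That probe was also higher, at 0.36 ± 0.11 (SD, n = 4 arrays; adjusted p = 0.00202 over all probes). The brighter probe exceeded it on each array, by 0.18 on average and by 0.032 to 0.25 on single arrays.

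Tlr9 binds DNA rich in unmethylated CpG. Its log2 levels were 11.51, 11.72, 11.80 and 11.69 in -F+S cells, against 11.82, 11.97, 12.40 and 12.18 in normal culture. The groups did not overlap, but the highest -F+S level and the lowest normal culture level, on different arrays, were close together. The ratios of -0.31, -0.24, -0.60 and -0.49 averaged -0.41 ± 0.16 (SD, n = 4 arrays), or 1.33-fold lower (SE 0.080, adjusted p = 0.00145). With median centring of each array in place of loess the Tlr9 ratio was -0.33 and was no longer called (adjusted p = 0.0758).

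Tlr7 and Tlr8 bind single-stranded RNA and lie on the X chromosome. The Tlr7 probe was well above background on 2 of 4 arrays in -F+S cells and on 2 of 4 in normal culture, with log2 levels of 7.12, 6.96, 7.27 and 7.14 in -F+S cells, against 7.24, 7.16, 7.55 and 7.22 in normal culture. The levels overlapped, and the ratio was below 0 on all 4 arrays, with a mean of -0.17. Without the filter on dim probes Tlr7 was called lower (adjusted p = 0.0431), a call that rests on values at the edge of detection. The Tlr8 probe was not well above background in either channel on any array, at log2 levels of 6.37, 6.60, 6.80 and 6.55 in -F+S cells and 6.56, 6.78, 6.49 and 6.46 in normal culture.

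Myd88, the shared adaptor, showed no change that passed the test, and the sign of its ratio differed between arrays. Its 10 spots per array gave log2 levels of 12.61, 12.60, 12.61 and 12.72 in -F+S cells, against 12.62, 12.69, 12.85 and 12.61 in normal culture. The levels overlapped. The ratios were -0.013, -0.086, -0.25 and 0.10, with a mean of -0.061 ± 0.15 (SD, n = 4 arrays; SE 0.077, adjusted p = 0.502). Repeat spots within an array had an SD of only 0.011 to 0.022, so the differences between arrays were larger than the scatter of spots. Myd88 was called lower with the scanner's own LogRatio (-0.25, adjusted p = 0.0297), a scale on which the median of all genes shifted to -0.12. Without replicate 3 its mean was 0.00089.

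**Figure D2:**
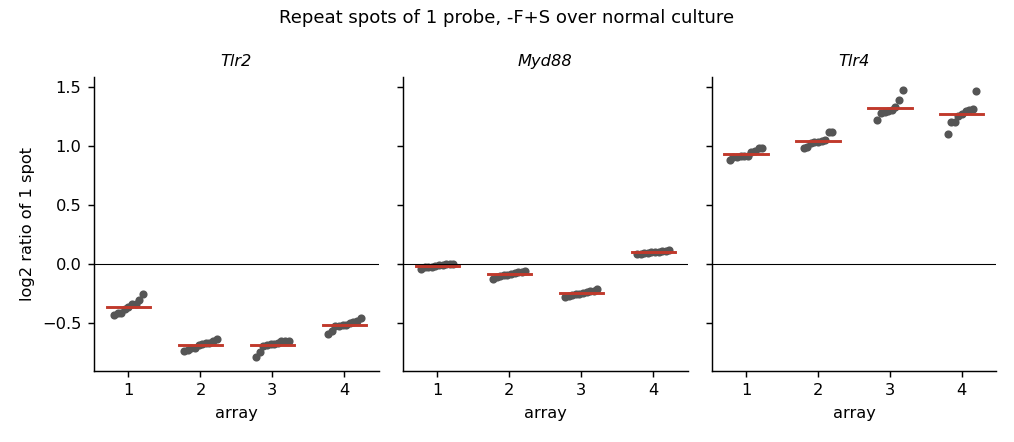
Each point is 1 spot of the probe of Tlr2, Myd88 or Tlr4, as the log2 ratio of -F+S over normal culture, sorted by value within each of 4 arrays, and bars are array means. Spots of an array lie close together while arrays differ, so the spread of the Myd88 ratio from -0.25 to 0.10 is a difference between arrays.

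The ratios of the 7 tested genes were, from low to high, those of Cd14, Tlr2, Tlr9, Myd88, Tlr3, Tlr4 and Tlr6. The array values of Cd14 did not overlap those of Tlr2, its neighbour in that order, from which it differed by 0.77 on average. The array values of Tlr2, Tlr9 and Myd88 overlapped from neighbour to neighbour, with mean steps of 0.15 and 0.35. Tlr3 lay apart from both of its neighbours, by 0.61 above Myd88 and by 0.59 below Tlr4. Tlr4 and Tlr6 differed by 0.070 with overlapping array values. Levels of different probes are not compared, because probes differ in brightness at equal RNA. The share of G and C bases was 55% in the Cd14 probe, 53.3% for Tlr9 and 45% for Tlr2 and Myd88. It was 35% in the tested probes of Tlr4 and Tlr6, and 35% and 26.7% in those of Tlr3. The lower genes thus had probes richer in G and C than the higher ones. With no dye swap, a dye effect of probe sequence cannot be told apart from the treatment and was not tested. The largest spread between arrays among the 7 was that of Cd14, and no array value of a member stood apart from the other 3 by Dixon's test.

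**Figure D3:**
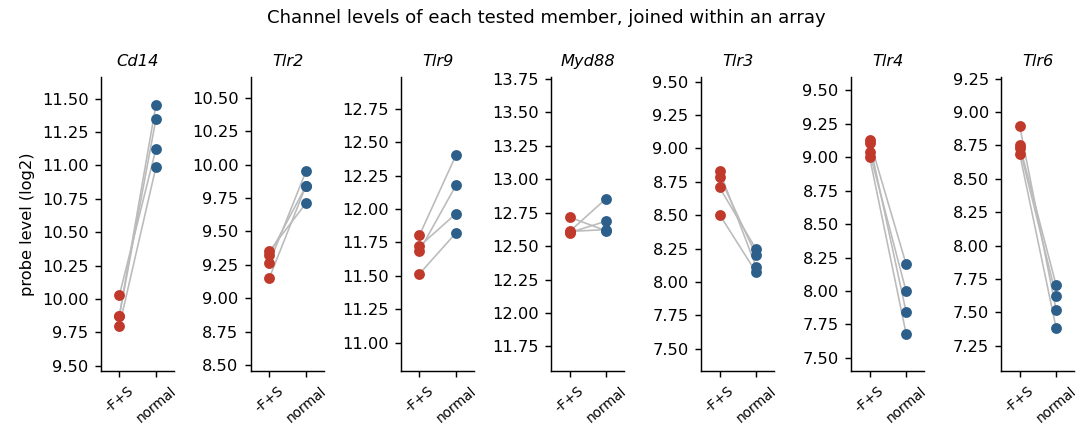
The log2 channel level of the brighter tested probe of each gene is shown for -F+S cells (left in each panel) and normal culture (right), with lines joining the samples of an array, on axes that all span 2.2 log2 units at different heights. In every panel except that of Myd88 the points of -F+S cells and normal culture do not overlap.

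Genes for proteins that help the receptors fold, travel and bind were more often called higher than lower. Of 9 genes in the list of co-receptors and helpers, 8 were tested, 5 were higher, 1 was lower and 2 were not called. The shares over all genes tested were 37.5% higher and 30.9% lower. The list had a median log2 ratio of 0.49, against 0.023 for all genes tested. Its median was 0.38 with the mean of each gene's probes. With the scanner LogRatio it was 0.31, with 6 genes higher and 2 lower. Beside Ly96, the higher genes were Cnpy4, a chaperone linked to Tlr4 surface display (0.64, adjusted p = 3.62e-05), Lbp, the serum protein that loads lipopolysaccharide onto Cd14 (0.50, adjusted p = 0.000347), and Ly86, which binds Cd180 (0.50, adjusted p = 0.000160). The fifth was Unc93b1, which carries Tlr3, Tlr7 and Tlr9 to endosomes (0.49, adjusted p = 0.000229), but its second probe gave -0.084 and was not called. Cnpy3, a chaperone of several receptors, was lower (-0.49, adjusted p = 0.000204). Hsp90b1, the folding chaperone of most Toll-like receptors, had a ratio of 0.077 (adjusted p = 0.332) at its brightest probe. Its second probe gave 0.54 and was called higher. The brightest probe was called higher with the scanner LogRatio (0.20) and lower with median centring in place of loess (-0.42). Cd36, a scavenger receptor that works with Tlr2 and Tlr6, had a ratio of -0.17 (adjusted p = 0.105). It was called lower at -0.41 with the scanner LogRatio, and at -0.36 on median-centred processed signals and on median-centred series matrix values. Cd180 was not well above background on any array at either of its 2 probes.

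Of the other receptors of the family, Tlr5, which binds flagellin, was higher on all 4 arrays. Its log2 levels were 8.27, 8.35, 8.15 and 8.27 in -F+S cells, against 7.82, 7.77, 7.79 and 7.71 in normal culture, with a mean ratio of 0.49 (SE 0.071, adjusted p = 0.000232). The groups did not overlap. Tlr11, Tlr12 and Tlr13 were matched to no probe by name and were not analysed here.

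Among the TIR adaptors, Ticam1 rose while Tirap did not pass the test. Ticam1 is the adaptor of Tlr3 and of the endosomal signal of Tlr4. It had log2 levels of 10.80, 10.99, 10.92 and 10.82 in -F+S cells, against 9.97, 9.95, 10.29 and 10.21 in normal culture, a mean ratio of 0.78 (SE 0.087, adjusted p = 3.99e-05). Its second probe gave 0.85 and was called higher too. Tirap, which bridges Tlr2 and Tlr4 to Myd88, had a ratio of -0.12 (adjusted p = 0.148), and was called lower at -0.30 with the scanner LogRatio. The Ticam1 ratio exceeded the Myd88 ratio by 0.85, 1.13, 0.88 and 0.51 on arrays 1 to 4. Pik3ap1, which links the receptors to phosphoinositide 3-kinase, was lower by a small margin (-0.25, adjusted p = 0.0191), and the call was lost with median centring and without replicate 1, 2 or 3 (adjusted p between 0.0513 and 0.0809 without 1 of these). Ticam2, the bridge between Tlr4 and Ticam1, was not well above background on any array, and Sarm1, an inhibitory adaptor, was so only in normal culture, on 2 arrays.

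The interleukin 1 receptor family shares the TIR domain and Myd88, and its genes were split. Of 6 genes, 5 were tested, 2 were higher and 3 were lower, with a median log2 ratio of -0.51. All genes tested gave 37.5% higher and 30.9% lower. The median was -0.27 with the mean of each gene's probes and 0.24, with 2 higher and 2 lower, where only genes well above background in both channels on all arrays were tested, which leaves out Il18rap. Il1r1, the signalling receptor for interleukin 1, had log2 levels of 12.88, 13.14, 12.996 and 13.02 in -F+S cells, against 11.50, 11.55, 11.52 and 11.61 in normal culture. Its mean ratio of 1.46 (SE 0.070, adjusted p = 1.47e-07) was above that of each Toll-like receptor. Il1rl2, the receptor for IL-36, was also higher (0.99, adjusted p = 1.50e-06). Il1rl1, the receptor for IL-33, was lower, at -1.19 (adjusted p = 1.25e-06), but its 2 other probes gave -0.067, not called, and -0.36. Il1rap, the co-receptor of several of these, was lower at -0.51 (adjusted p = 0.00157), with -0.16 and -0.14, neither called, at its other probes. Il18rap was well above background on all 4 arrays in normal culture and on none in -F+S cells. Its measured ratio was -0.68 (adjusted p = 1.65e-05), and its bound was at least 1.58-fold lower in -F+S cells, which that p does not test. Such a bound sets the mean of the brighter group against the dim probe's own level or the lowest signal well above background, whichever was higher on an array. Il18r1 was not well above background on any array.

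Below the adaptors the lists were mixed. Of 19 kinases and ligases that act between Myd88 or Ticam1 and NF-kB, 9 were higher, 5 were lower and 5 were not called, with a median of 0.10. Among all genes tested, 37.5% were higher and 30.9% lower. The higher genes with the smallest adjusted p were Ripk1, which binds Ticam1 (1.25, adjusted p = 6.60e-07), Tab2, a partner of the kinase Map3k7 (1.11, adjusted p = 1.95e-06), and Irak2 and Irak4, kinases recruited by Myd88 (1.06, adjusted p = 5.43e-06, and 0.83, adjusted p = 4.41e-05). The second probe of Irak4 gave 0.11 and was not called. The lower ones were led by Traf3, a ligase of the interferon branch (-0.50, adjusted p = 0.000223), Ikbke, a kinase that activates Irf3 (-0.38, adjusted p = 0.00556), Tab3, a relative of Tab2 (-0.27, adjusted p = 0.00574) and Map3k7 itself (-0.35, adjusted p = 0.00728). With median centring in place of loess 1 of the 19 was called lower, Traf3 at -0.45, while Ikbke (-0.32), Tab3 (-0.27) and Map3k7 (-0.26) lost the call at ratios still below 0. With the scanner LogRatio 6 were higher and 7 lower (median -0.055), as on median-centred processed signals (median -0.0053).

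Of the 10 NF-kB subunits and interferon regulatory factors, 3 were higher, 5 were lower and 2 were not called (median -0.093). The shares over all genes tested were 37.5% higher and 30.9% lower. Nfkb1, which encodes the p105 precursor, was higher at 1.30 (adjusted p = 2.07e-06) and at both of its other probes (0.68 and 0.97). Nfkb2 was higher at 0.34 (adjusted p = 0.00351), and Irf8 at 0.20 (adjusted p = 0.0311). Irf8 gave -0.058 at its second probe and lost its call without replicate 1, 2 or 3 (adjusted p between 0.0755 and 0.141). Nfkb2 and Irf8 were not called on the scanner LogRatio or on median-centred processed signals. Irf1 (-0.57, adjusted p = 8.72e-05), Irf7 (-0.63, adjusted p = 0.000101), Irf5 (-0.50, adjusted p = 0.00105) and Relb (-0.38, adjusted p = 0.00167) were lower. Of these, Irf7 and Irf5 carry the interferon and cytokine signals of the endosomal receptors. With median centring 3 genes of the list were lower, and Relb, at -0.34, was not among the called (adjusted p = 0.0565).

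Of 17 negative regulators of the pathway, 16 were tested, with 6 higher, 4 lower and 6 not called (median 0.055). For all genes tested the shares were 37.5% higher and 30.9% lower. The scanner LogRatio gave 5 higher and 6 lower (median -0.10), and median-centred processed signals 4 higher and 5 lower (median -0.051). Cyld, which removes ubiquitin chains from the signalling complex, was higher at 1.37 (adjusted p = 1.53e-07) and at 0.84 and 0.54 at its other probes. Nfkbie, an inhibitor of NF-kB (0.74, adjusted p = 1.84e-05), Tnfaip3, another ubiquitin editor (0.43, adjusted p = 0.000515), and Dusp1, a phosphatase of stress kinases (0.49, adjusted p = 0.000671), were also higher. Sigirr, an inhibitory member of the interleukin 1 receptor family (-0.69, adjusted p = 2.60e-05), and Socs1, an inhibitor of cytokine signals (-0.61, adjusted p = 6.85e-05), were lower. So were Nfkbib (-0.28, adjusted p = 0.00395) and Bcl3 (-0.27, adjusted p = 0.00809), neither of which was called with median centring, at -0.29 and -0.30, where 2 genes of the list were lower. Tnfaip3 was not called on median-centred processed signals (0.29, adjusted p = 0.0815).

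The inflammatory genes that Toll-like receptors induce were far lower in -F+S cells. Of 20 genes in that list, 16 were tested, 14 were lower, 1 was higher and 1 was not called, and the median log2 ratio was -2.43. Across all genes tested 30.9% were lower and 37.5% higher. The list was chosen with earlier results of these data known, so its count is a description only. The median was -1.67 without the filter on dim probes and -3.23 with the scanner LogRatio. Where only genes well above background in both channels on all arrays were tested, 9 were lower and 1 was higher. Where 4 genes not well above background in any -F+S sample were set to the bound that the detection limit allows, the median was -2.19. Saa3, an acute phase protein, had the largest fall in the list (-4.85, adjusted p = 6.79e-09). The next by adjusted p were the chemokines Ccl2 (-2.86, adjusted p = 8.06e-09) and Ccl4 (-3.19, adjusted p = 1.26e-08) and the iron-binding protein Lcn2 (-2.90, adjusted p = 1.26e-08). Among the 4 bounded genes, Il1b was at least 3.73-fold lower, Cxcl2 at least 3.14-fold, Il1a at least 1.88-fold and Tnf at least 1.84-fold. All 4 passed the filter through normal culture alone. The adjusted p of their measured ratios, in that order, were 8.03e-08, 3.59e-08, 4.00e-06 and 5.60e-06, and these do not test the bounds. These 4 genes and Cxcl10, like the cell markers named further on, lie outside the rule for naming genes and were chosen after their values were seen. Icam1, an adhesion molecule, was higher (0.40, adjusted p = 0.00123), without a call under any of the 3 median-centred settings. Cxcl10, an interferon-induced chemokine, had a ratio of 0.011 (adjusted p = 0.911). The falls of Cd14, Tlr2 and Tlr9 were in the direction of this list, and the rises of Tlr3, Tlr4 and Tlr6 were opposite to it.

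**Figure D4:**
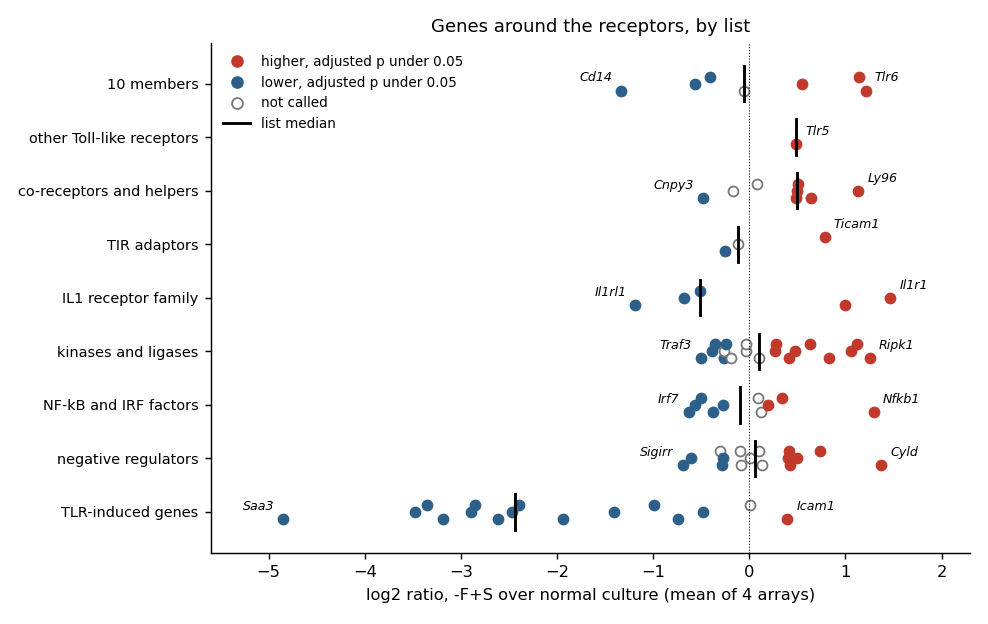
Each point is a tested gene of a list around the receptors, placed by its mean log2 ratio of -F+S over normal culture on 4 arrays, with red for higher, blue for lower and open for not called, and black bars at list medians. The TLR-induced genes spread far to the left, with a median of -2.43, while the other lists lie within 1.5 log2 units of 0.

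Markers of several cell types also differed between the groups, some lower and some higher in -F+S cells. Their counts stand beside 37.5% called higher and 30.9% called lower over all genes tested. Of 16 markers of macrophages and monocytes, the cells best known for Cd14 and Tlr2, 14 were tested, 9 were lower, 3 were higher and 2 were not called (median -0.52). Their summed linear levels lay between 53035 and 66287 in -F+S cells, against 123261 to 148144 in normal culture. Such sums, here and for the lists that follow, are set mostly by the brightest probes, so they can differ from the median. Adgre1, a defining macrophage marker with the largest fall of the list, had log2 levels of 10.06, 10.04, 9.95 and 10.04 in -F+S cells, against 12.20, 12.29, 12.11 and 12.32 in normal culture. Csf1r, another defining marker, had a ratio of -0.59 (adjusted p = 4.80e-05), with -0.205 and a call as lower at its second probe. Ptprc, the common leukocyte marker, had a ratio of -0.50 (adjusted p = 0.000501). Fcgr1 (-0.092) and Laptm5 (0.016) were not called. Spi1 was well above background only in normal culture, on 2 arrays, and Cd163 on no array. Aif1, Mrc1 and Cx3cr1 were the 3 higher markers, with 0.32, 0.35 and, for Cx3cr1, which was not well above background in normal culture, at least 1.39-fold, and 1 marker of the list was higher with the scanner LogRatio. The part of these cells in the falls of Cd14, Tlr2 and the TLR-induced genes was not tested.

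Of 8 markers of neutrophils and mast cells, 3 were tested, with 1 higher, 1 lower (S100a8, -4.47, adjusted p = 1.01e-08) and 1 not called, and their summed levels were 1598 to 2234 in -F+S cells, against 3332 to 4791 in normal culture. S100a8 was well above background on 2 of 4 arrays in -F+S cells, and none of the list was lower where both channels had to be so on all arrays, against 4 without the filter. Of 8 markers of B, T and dendritic cells, 5 were tested and 1 was lower (0 with median centring and 4 with the scanner LogRatio), with sums of 1040.4 to 1184 in -F+S cells, against 1179 to 1244. Markers of fibroblasts and feeder cells were higher for 7 of 8 genes (median 1.44), with sums of 1360390 to 1467990 in -F+S cells, against 540471 to 609375 in normal culture. Markers of Sertoli cells were higher for 7 of 7 (median 2.31), with sums of 121673 to 131152 in -F+S cells, against 13839 to 16299. Of these, Fshr was well above background on 4 arrays in -F+S cells but on only 1 in normal culture. Where both channels had to be so on all arrays, 5 Sertoli markers were higher and 0 lower. Endothelial markers were split, with 2 higher and 3 lower of 6 (1 lower with median centring) and sums of 4137 to 4627 in -F+S cells, against 4637 to 5218. Of 11 tested markers of germ cells and spermatogonia, which the label of the samples names, 7 were lower, 4 were not called and none was higher. The median was -0.27. Without replicate 3, 4 were lower, and with the mean of each gene's probes 9 were lower. All 11 were well above background on every array in both channels, and their sums were 176742 to 182243 in -F+S cells, against 206445 to 246091. The part of fibroblasts and Sertoli cells in the rises of Tlr3, Tlr4, Tlr6 and Il1r1 was not tested.

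Promoters are shown for Tlr2 and Tlr6, because these partner receptors moved in opposite directions. RefSeq windows of 250 bases before to 50 after the start (GRCm38.p6, written on the gene's strand) were searched for 7 of the 10 genes. These were 9 windows. No window of Cd14, Tlr4 or Tlr7 was searched, so the motif counts do not cover these genes. On both strands 3 motifs were searched: an NF-kB-like GGNNNTTCC, an interferon-response-like GAAANNGAA and a PU.1-like GAGGAA, with matches in capitals. The first stands for the factors that the receptors activate, the second for interferon regulatory factors and the third for the myeloid factor Spi1.
Tlr2, chr3:83841559-83841858, minus strand: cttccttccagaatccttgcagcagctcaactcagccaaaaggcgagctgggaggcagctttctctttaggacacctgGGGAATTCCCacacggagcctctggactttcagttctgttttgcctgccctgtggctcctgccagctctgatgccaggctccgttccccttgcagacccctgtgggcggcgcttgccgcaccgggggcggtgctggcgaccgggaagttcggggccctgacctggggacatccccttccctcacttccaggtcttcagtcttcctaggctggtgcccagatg
Tlr6, chr5:64959117-64959416, minus strand: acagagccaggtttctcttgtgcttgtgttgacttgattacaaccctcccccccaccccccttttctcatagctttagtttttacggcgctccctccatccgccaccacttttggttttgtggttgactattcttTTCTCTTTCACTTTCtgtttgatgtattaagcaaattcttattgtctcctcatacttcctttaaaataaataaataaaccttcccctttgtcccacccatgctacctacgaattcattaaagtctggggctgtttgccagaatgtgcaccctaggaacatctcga
Tlr6, chr5:64959999-64960298, minus strand: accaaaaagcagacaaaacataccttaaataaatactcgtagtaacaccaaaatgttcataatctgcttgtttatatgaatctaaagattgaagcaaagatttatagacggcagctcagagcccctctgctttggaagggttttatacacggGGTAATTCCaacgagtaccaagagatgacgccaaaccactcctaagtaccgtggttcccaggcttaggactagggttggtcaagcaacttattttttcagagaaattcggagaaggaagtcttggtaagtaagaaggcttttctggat
The Tlr2 window held NF-kB-like letters in 1 place, beginning 172 bases before the start, where a match on each strand overlapped over 10 bases. One Tlr6 window held interferon-response-like letters over 15 bases, beginning 115 bases before its start and made of 2 overlapping matches. The other Tlr6 window held NF-kB-like letters 98 bases before its start. Among the 7 genes, the NF-kB-like letters occurred for 4 (Tlr2, Tlr3, Tlr6 and Myd88), the interferon-response-like letters for 3 (Tlr6, Tlr8 and Myd88) and the PU.1-like letters for 3 (Tlr1, Tlr8 and Tlr9). Of all 32851 windows, 18.5% held the first, 8.56% the second and 28.3% the third. These shares are by window, while the counts of members are by gene, over all windows of a gene, so they are not like measures. Genes with NF-kB-like letters included a receptor that fell, receptors that rose and an adaptor with no call, and a match of letters is not a bound site.

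The genes whose 4 array ratios lay nearest to those of Cd14, by Euclidean distance among name-matched tested genes, were Tspoap1, Efnb3, Camkv, Plb1 and Wnt3, at distances of 0.15 to 0.21 and mean ratios between -1.40 and -1.27. Those nearest to Tlr6 were Fmo1, Kcnc1, Mef2a, Morc4 and Itm2b, at distances of 0.070 to 0.13 and mean ratios between 1.16 and 1.25. The measure covers 4 arrays of a single contrast.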

How the data were processed

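The deposited intensity values are mean and background signals of each spot on a linear scale, from Agilent Feature Extraction, version 10.5.1.1 (per the file headers). The deposited LogRatio is log10 of red over green, per the file headers. The authors' series matrix holds deposited log2 values, which equalled log2 of green over red processed signal for 100% of 40929 single-spot probes within 0.001, uncentred (column medians -0.26, 0.012, 0.11 and -0.058).

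Here, normexp (offset 50) and within-array loess (control spots at weight 0) were applied, 141 to 171 outlier spots per array were left out, and spots of a probe were averaged. No spot was saturated. Probes marked well above background on 3 or more of 4 arrays in 1 channel were kept (27722), and the brightest stood for a gene. Names were updated through RefSeq (GRCm38.p6) for 25097 probes by accession and 7973 by symbol, and 8104 kept the file's name. Log2 ratios of -F+S over normal culture were tested against 0 with limma 3.58.1 in R 4.3.3 (two-sided, Benjamini-Hochberg over all genes). Channel levels come from Aquantile scaling. Precision is limited by the number of arrays. Across genes, array ratios correlated at 0.907 to 0.948. The design text calls the replicates biological. The procedure was also run on simulated data with few changed genes, normal noise and no dye effect, so that run cannot speak to dye effects. Alternatives changed the normalization, background, filter, probe, names, pairing and arrays used.

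All genes of the receptor, co-receptor, adaptor and interleukin 1 receptor lists are given, and from each other pathway list up to 4 called genes per direction by smallest adjusted p. Likeness took the 5 nearest genes. Members and lists were chosen with earlier results of these data known.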

Additional observations from a re-analysis of the deposited data

How the results depend on the processing

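Cd14, Tlr2, Tlr3, Tlr4 and Tlr6 kept their direction and their call under every alternative that gave them a value. The log2 ratio ranged from -1.65 to -1.24 for Cd14, from -0.84 to -0.48 for Tlr2, from 0.36 to 0.61 for Tlr3, from 1.08 to 1.40 for Tlr4 and from 1.15 to 1.71 for Tlr6. Tlr9 ranged from -0.61 to -0.33 and lost its call with median centring in place of loess. Myd88 lay between -0.11 and 0.00089 without 1 replicate, the upper value without replicate 3. With the second brightest probe 1 member was called (Tlr3, the only one with such a probe), with 2480 genes higher and 1780 lower, because only genes with several probes enter. Genes called lower numbered 5705, and 3574 with median centring; the cause was not tested. Of the called genes 54.8% were higher, against 41.6% with the scanner LogRatio and 47.3% with median-centred processed signals. Leaving out 1 replicate gave 6446 to 6746 genes higher and 4998 to 5388 lower, with 6 members called each time. Over the 45 named genes outside the set, 649 of 689 values kept direction and side of the threshold. The 3 that turned were Hsp90b1 with median centring (-0.42) and Irf8 (-0.058) and Unc93b1 (-0.084) at the second brightest probe. The test of within-array ratios is itself paired by array. Without that replicate block, with channel levels as separate samples (chosen after seeing the data), 6680 genes were higher and 5470 lower, and the same 6 members were called. Tlr1, Tlr7 and Tlr8 are limited by signal over background.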
